A study of Mus musculus with 12 samples.

Results

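The difference of time effects asks, gene by gene, whether the change between 18 h and 30 h after a serum shock was the same in MLL1 knockout cells as in wild-type cells. It was computed from all 12 arrays of the series as the knockout change minus the wild-type change, on the log2(intensity + 16) scale, with the brightest probe set of each gene that carries 1 gene symbol. Of 19938 such genes, 13956 were bright enough on average to be tested, and 2838 of them (20.3%) had a difference that passed the test (limma, adjusted p under 0.05). A positive difference means that the knockout change was higher than the wild-type change, and a negative one that it was lower.

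The cells were fibroblasts of mouse embryos, the cells that build connective tissue, either wild type (WT) or labelled MLL1-KO. All grew in DMEM that held newborn calf serum and fetal bovine serum at 5% each, and all received a 2 h shock of 50% horse serum, which aligns the circadian clocks of cultured cells. The labels CT18 and CT30 mark arrays of RNA taken 18 h and 30 h after the shock, so the 4 groups are wild type at 18 h, wild type at 30 h, knockout at 18 h and knockout at 30 h, with 3 arrays each. The labels do not say how the gene was disrupted, how many embryos or lines the cells came from, or whether replicates are separate cultures, and p-values therefore reflect array-to-array spread that may be technical. In such bulk RNA, fewer cells of a type and less RNA per cell cannot be told apart.

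In the mammalian clock the proteins CLOCK and BMAL1, the latter encoded by Arntl, bind E-boxes and drive the Period and Cryptochrome genes, whose proteins feed back to block them. The nuclear receptors of the Rev-erb and ROR families act against each other at a further element, the RORE, which controls Arntl, and the D-box is read by the activators DBP, TEF and HLF and by the repressor NFIL3. MLL1, encoded by Kmt2a, is a histone H3 lysine methyltransferase whose mark is found at active promoters, and it is known for keeping HOX genes on.

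Kmt2a was examined first as a check of the labels. Its intensity was 2265, 2824 and 2099.7 in wild type at 18 h and 2129, 2155 and 2069 at 30 h. In knockout it was 2120.2, 2174 and 1959.7 and then 1338, 1367 and 1584. The wild-type and knockout arrays overlapped at 18 h and not at 30 h. Its change was -0.17 in wild type (adjusted p = 0.4) and -0.54 in knockout (adjusted p = 0.000367). Its difference of time effects was -0.38 (adjusted p = 0.0653). It did pass when wild-type 18 h replicate 2 was left out (-0.50, adjusted p = 0.00983) or knockout 30 h replicate 3 (-0.45, adjusted p = 0.038). Since no source used here says where the probes lie relative to the disrupted part, Kmt2a is no check of the genotype.

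The median intensity of the arrays, over all probe sets, ran from 273.3 to 311.8, and arrays of a group correlated at 0.984 to 0.996. With 3 arrays a group, the number of arrays limits the precision. The first principal component held 86.8% of the variance and separated the genotypes. Knockout arrays lay at -60.7 to -48.3 on it and wild-type arrays at 52.2 to 56.1. Since the labels do not give the number of lines, genotype and line cannot be told apart. Knockout 18 h replicate 1 stood apart from its group. On the second principal component, which separated the times and held 7.11% of the variance, it lay at -9.34, while knockout 18 h replicates 2 and 3 lay at -25.2 and -24.9, wild-type arrays at -5.65 to 3.17 and knockout 30 h arrays at 20.0 to 24.6. Without it 4145 genes passed in place of 2838, and these held 2804 (98.8%) of the 2838. The summed intensity of 12 fibroblast markers lay between 56850 and 62490 on all arrays, and the brightest of them, Vim (a filament protein), Fn1 (fibronectin) and the collagens Col1a1 and Col1a2, had no called difference of time effects. Of the 10 tested fibroblast markers, 2 were called (20.0%), near the 20.3% over all tested genes. These were the proteoglycan gene Dcn and S100a4, a calcium-binding protein gene. Both had a positive difference (0.60 and 0.81, limma adjusted p = 0.026 and 0.0105). The markers were not at the same level in both genotypes. At 18 h the mean of Dcn was 422.6 in wild type and 5766 in knockout, while Pdgfra and Col3a1 had 3811 and 3260.2 in wild type and 395 and 553 in knockout.

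Time changes were larger in knockout than in wild type for most genes. The median absolute change was 0.177 in knockout and 0.0973 in wild type over the tested genes, and the knockout change was the larger one in 9511 of 13956 genes (68.1%) and in 2558 (90.1%) of the 2838 called for the difference. Between 18 h and 30 h, 5484 genes (39.3%) passed in knockout, 2912 (20.9%) with a rise and 2572 (18.4%) with a fall. In wild type 553 genes (3.96%) passed, 337 (2.41%) with a rise and 216 (1.55%) with a fall. Across genes the changes in both genotypes correlated at 0.28, given as a description, since genes are not independent and arrays of 1 group share their errors.

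The wild-type count rested on few arrays. It was 157 without wild-type 30 h replicate 3, 164 without wild-type 30 h replicate 1, 178 without wild-type 18 h replicate 2, 254 without wild-type 18 h replicate 1 and 316 without wild-type 30 h replicate 2. It was 907 without wild-type 18 h replicate 3 and 1032 without knockout 18 h replicate 1. The share of rises among wild-type calls, 60.9%, was 47.1% without wild-type 30 h replicate 3 and 50.7% after cyclic loess scaling.

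Of the 2838 differences, 1427 (10.2%) were positive and 1411 (10.1%) negative, a share of positives of 50.3% that became 43.1% with array medians set equal and 42.8% after cyclic loess scaling. They were sorted, as a description with no test of its own, by which time change passed. A change was called lost where only the wild-type change passed, gained where only the knockout change passed, and reversed where both passed in opposite directions. Gained changes were 2440 genes (17.5% of those tested), lost changes 112 (0.803%) and reversed changes 64 (0.459%). Another 58 genes (0.416%) changed the same way in both genotypes by different amounts, and in 164 (1.18%) neither time change passed. Since a class needs 1 change to pass and may need another to fail, the classes of rare members moved with single arrays. Lost genes numbered 46, 47, 47, 65 and 74 without wild-type 30 h replicate 3, wild-type 18 h replicate 2, wild-type 30 h replicate 1, wild-type 18 h replicate 1 and wild-type 30 h replicate 2. They numbered 182 and 191 without knockout 18 h replicate 1 and wild-type 18 h replicate 3. Reversed genes numbered 12, 25, 19, 29 and 38 in the order of the first 5 of these arrays, 39 without knockout 18 h replicate 2 and 154 without knockout 18 h replicate 1. Genes of the same direction numbered 12, 16, 15, 16 and 18 in that order, 31 and 34 without knockout 18 h replicate 2 and knockout 30 h replicate 2, and 174 without knockout 18 h replicate 1. For some named genes the number of fits with 1 array left out that kept the class, out of 12, is given below.

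**Figure D1:**
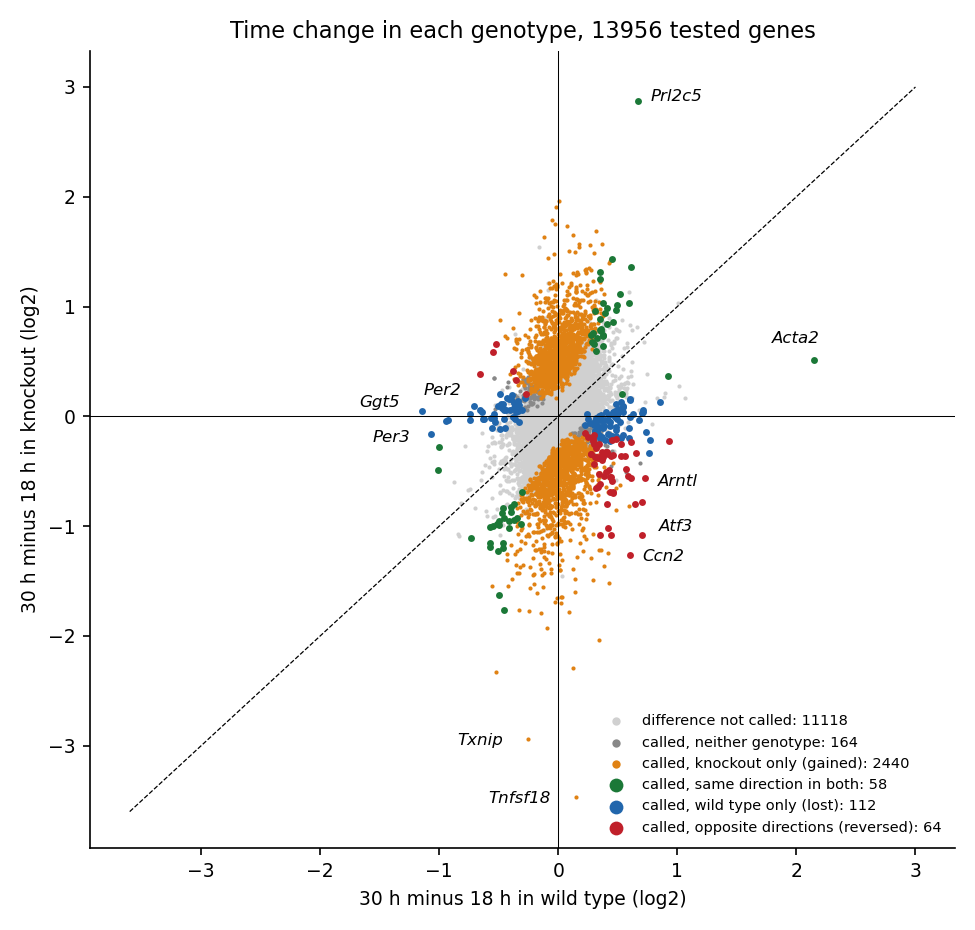
Each point is 1 of 13956 tested genes, with the log2 change from 18 h to 30 h in wild type on the horizontal axis and in knockout on the vertical axis, coloured by class. The dashed line marks equal changes. Points spread more along the vertical axis than along the horizontal one, and reversed genes lie mostly below 0 on the vertical axis, with 58 of 64 rising in wild type and falling in knockout.

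The lost changes were 69 rises and 43 falls. Over the 69 lost rises the median change was 0.44 in wild type and -0.043 in knockout, and over the 43 lost falls -0.47 and 0.051. In 59 of the 69 lost rises the knockout level was already above wild type at 18 h, against 32 of 69 at 30 h. Among the 64 reversed genes, 58 rose in wild type and fell in knockout (median changes 0.41 and -0.37), and 6 did the opposite (-0.45 and 0.40). The 58 were above wild type in knockout at 18 h in 51 cases and at 30 h in 25. These medians and counts come from the values that chose the members, so they are a description only. By definition, a negative difference is a knockout level that is higher, relative to wild type, at 18 h than at 30 h, which favours such counts. Over all tested genes knockout was above wild type at 18 h in 46.7%. The wild-type arrays of the times were apart in all 69 lost rises and 43 lost falls, and the knockout arrays in all 58 reversed rises. Over all tested genes the shares were 25.6% in wild type and 46.2% in knockout. The time calls that chose these genes favour such separation, so it is no support for the classes.

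The gained changes were 1262 rises and 1178 falls, with median knockout changes of 0.56 and -0.56 beside wild-type medians of -0.013 and 0.012. Of the 1262 gained rises, 103 were above wild type in knockout at 18 h, while 888 of the 1178 gained falls started above wild type. The share over all tested genes was 46.7%, and the sign of the difference that chose these genes favours such starting levels. The gap between the genotypes was smaller at 30 h than at 18 h in 1995 (70.3%) of the 2838 called genes, against 8171 (58.5%) of all tested. These counts rest on the values that chose the genes, so they are a description only. Some gained changes lay in genes that wild type hardly showed, since 81 gained falls and 14 gained rises had wild-type means below the filter level of intensity 174.8 at both times. Knockout means were below that level at both times in 23 gained rises and 5 gained falls. The same held for 6 of the 43 lost falls and 2 of the 69 lost rises, where a knockout change could hardly be measured.

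Of the 337 genes that rose in wild type, 149 also rose in knockout, 58 fell and 130 did not pass. Of the 216 that fell in wild type, 124 fell in knockout, 6 rose and 86 did not pass. The sign of the change was the same in 68.0% of the risers and 84.7% of the fallers, with knockout medians of 0.16 and -0.28. The 337 genes called in both genotypes were 60.9% of the wild-type list and 6.15% of the knockout list. Genes were counted as lost or gained only where the difference itself passed. No called difference was found for 104 genes that passed in wild type only, nor for 2707 genes that passed in knockout only. Passing in knockout alone is therefore not by itself a change particular to knockout.

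The clock genes held changes that were lost, reversed and gained. Arntl, the gene of BMAL1, rose in wild type and fell in knockout. Its wild-type intensity went from 781, 711 and 633 at 18 h to 1168, 1136 and 1243 at 30 h, and its knockout intensity from 1485, 1619 and 1528 to 910.1, 1206 and 1024. The 3 knockout arrays at 18 h were the highest of all 12 and the 3 wild-type arrays at 18 h the lowest. The log2 change was 0.73 in wild type (adjusted p = 0.00103) and -0.56 in knockout (adjusted p = 0.000365), and the difference was -1.29 ± 0.14 (SE, limma adjusted p = 4.7e-05). Arntl stayed reversed in all 12 fits with 1 array left out.

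Its partner Clock had no called difference (-0.12, adjusted p = 0.567), with changes of 0.15 and 0.03. Arntl2, a paralogue of Arntl, had a difference of the opposite sign. Its intensity went from 3435, 4019.9 and 3051 to 2490.3, 2811 and 2765 in wild type and from 1434, 1108 and 944 to 1377, 1514 and 1474 in knockout, where knockout 18 h replicate 1 overlapped the 30 h arrays. The difference was 0.71 (adjusted p = 0.00961) and passed in every fit with 1 array left out, while its class, gained, was kept in 4 of the 12.

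Per2 and Per3, which encode repressors of CLOCK and BMAL1, lost their fall. Per2 went from 828, 949 and 848 to 430.1, 481 and 451 in wild type, a log2 change of -0.92 (adjusted p = 3.11e-05), and from 583, 639 and 633 to 614, 606 and 589 in knockout, a change of -0.034 (adjusted p = 0.805). All knockout arrays lay between the wild-type arrays of both times. The difference for Per2 was 0.89 ± 0.12 (SE, adjusted p = 0.000191). Per3 went from 1060.1, 1304 and 1002 to 468, 585 and 519.7 in wild type (-1.07, adjusted p = 0.000153) and from 492, 419 and 366 to 391, 368 and 372 in knockout (-0.16, adjusted p = 0.335), and the lowest wild-type 30 h array was below the highest knockout 18 h array. Its difference was 0.91 ± 0.17 (SE, adjusted p = 0.00161), and both genes stayed lost in all 12 fits with 1 array left out.

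Ciart, a further repressor of CLOCK and BMAL1, rose in knockout. It went from 1194, 977 and 926 to 1652, 1583 and 1205 there (0.51, adjusted p = 0.00771), and from 829.6, 898 and 1105 to 738, 696 and 900.1 in wild type (-0.27, adjusted p = 0.315). Its difference was 0.78 (adjusted p = 0.0104), and its other probe set gave 0.81. Per1 had changes of -0.30 and -0.65, and its difference of -0.35 (adjusted p = 0.117) passed without knockout 18 h replicate 1 (-0.47, adjusted p = 0.0133). The other 3 of the 7 tested genes of the repressor arm, Cry1, Cry2 and Timeless, had differences of -0.058, -0.21 and 0.063 that did not pass. Of the 7, then, 3 passed, all positive, and none was negative, with a median of 0.063 beside 0.0385 over all tested genes.

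In the Rev-erb and ROR arm, Nr1d2, which encodes REV-ERB beta, fell in wild type from 2878, 2914 and 2586 to 2119, 2204 and 1976 and had 1646, 2075 and 1967 and then 2002, 1834 and 2069.5 in knockout. Its difference was 0.47 (adjusted p = 0.0147). Its wild-type change of -0.41 did not pass without any 1 of wild-type 18 h replicates 1 and 2 and wild-type 30 h replicates 1 and 3 (adjusted p = 0.0673 to 0.0999). Nr1d1, which encodes REV-ERB alpha, fell in knockout from 1471, 2570.0 and 2722 to 1320.1, 1282 and 1280.0 (-0.74, adjusted p = 0.00143), with knockout 18 h replicate 1 well below the other 2, and had 1427, 1563 and 1709 and then 1538, 1662 and 1545 in wild type. Its difference of -0.76 (adjusted p = 0.0254) did not pass without any 1 of knockout 18 h replicates 2 and 3, knockout 30 h replicate 2, wild-type 18 h replicate 1 and wild-type 30 h replicate 2 (adjusted p = 0.0512 to 0.075).

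Rora, the gene of an activator at the RORE, fell in knockout from 1386, 1421 and 1373 to 611, 802 and 776 (-0.93, adjusted p = 5.4e-06). In wild type it went from 899, 888 and 768 to 573, 660.1 and 617 (-0.45, adjusted p = 0.0207), a change that did not pass without any 1 of wild-type 18 h replicates 1 and 2 and wild-type 30 h replicates 1 and 3 (adjusted p = 0.0867 to 0.11). Its difference of -0.47 (adjusted p = 0.0296) did not pass without any 1 of knockout 18 h replicate 2, knockout 30 h replicate 1, wild-type 18 h replicate 3 and wild-type 30 h replicates 2 and 3 (adjusted p = 0.0597 to 0.0787). Rorb had a difference of 0.11 that did not pass. Among 4 tested kinase and ligase genes that set the lifetime of clock proteins, Csnk1e, the gene of casein kinase 1 epsilon, passed. It fell in knockout from 4471, 5772 and 5772 to 3353, 3616 and 3518 and had 3218, 3278 and 3240.2 and then 3152, 3123 and 3284 in wild type, a difference of -0.57 (adjusted p = 0.00289). Csnk1d, Btrc and Fbxl21 had differences of 0.12, 0.067 and -0.021 that did not pass.

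Of the 9 tested clock output genes, 3 passed with a positive and 2 with a negative difference. The D-box activator Tef fell in wild type from 2016, 2129.5 and 2021 to 1192, 1280.3 and 1187 (-0.75, adjusted p = 6.74e-05). In knockout it had 829, 787 and 784 at 18 h and 881, 790.3 and 773 at 30 h (0.023, adjusted p = 0.857), below every wild-type array. The difference for Tef was 0.77 ± 0.11 (SE, adjusted p = 0.000263), and Tef stayed lost in all 12 fits. Dbp, a related activator, fell from 1034, 970.3 and 1141 to 517, 539 and 489.7 in wild type (-1.0, adjusted p = 4.63e-05) and went from 718, 794 and 833 to 724, 612 and 590.4 in knockout (-0.28, adjusted p = 0.0294). The knockout change of Dbp did not pass without any 1 of knockout 18 h replicates 2 and 3 and knockout 30 h replicates 2 and 3 (adjusted p = 0.0856 to 0.114), while its difference of 0.72 (adjusted p = 0.00186) passed in every such fit.

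Nfil3, the gene of the D-box repressor, fell in knockout from 1579, 1938 and 2056 to 1155, 1196 and 1166 (-0.65, adjusted p = 5.27e-05) and had 664, 683 and 719 and then 738, 693 and 787 in wild type (0.1, adjusted p = 0.634). All knockout arrays were above all wild-type arrays. The difference was -0.75 (adjusted p = 0.00118). Bhlhe40, which encodes the E-box repressor DEC1, fell in wild type from 1068, 962 and 935 to 636, 736 and 661 (-0.53, adjusted p = 0.00174) and had 2999.7, 2762 and 2894 and then 2717, 2913 and 2709 in knockout, a difference of 0.48 (adjusted p = 0.00679).

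Bhlhe41, its paralogue, fell in both genotypes, with changes of -0.61 and -0.86, and its difference of -0.25 (adjusted p = 0.226) did not pass. Usp2, a deubiquitinase gene, fell in knockout from 669, 715 and 708 to 389, 399 and 402 and had a change in wild type that did not pass (-0.03, adjusted p = 0.89), a difference of -0.76 (adjusted p = 0.000353). Hlf, Wee1 and Nampt had differences of -0.15, 0.065 and -0.11 that did not pass. Over the clock lists, then, 14 of 27 tested genes passed for the difference, against 20.3% of all tested genes.

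**Figure D2:**
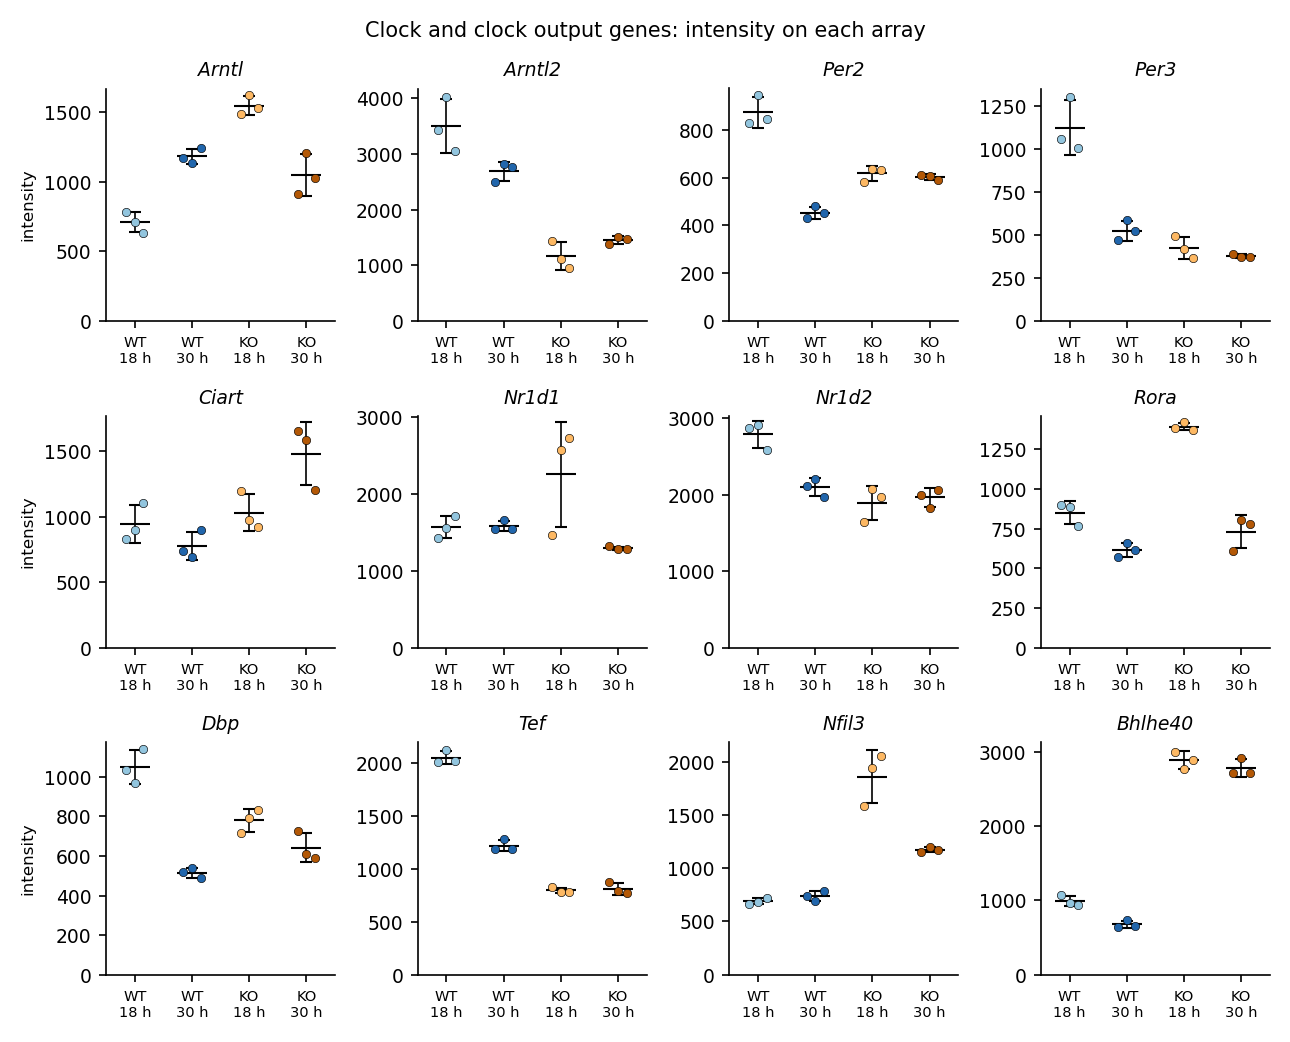
Intensity (linear axis from 0) of 12 clock and clock output genes on each of the 12 arrays, by genotype and time, with points for arrays, a horizontal line for the mean and bars for the SD (n = 3). Per2, Per3, Tef and Bhlhe40 drop between 18 h and 30 h in wild type and stay level in knockout, and Arntl rises in wild type and drops in knockout.

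Promoter sequences of these genes are shown to place the elements named above, from RefSeq (GRCm38.p6, 250 bases before to 50 after each start). Capitals mark the element, searched on both strands: CACGTG for the E-box, TTATGTAA for the D-box and TAGGTCA for the RORE. The E-box reads the same on both strands, and its last bases can be shared with a RORE on the opposite strand. The element lies 127 bases before the start in Tef, at 116, 58 and 44 bases before it in Ciart, at 205 and 158 bases before it in Per3, 12 bases before it in Nfil3, on the opposite strand, and 30 bases after it in Arntl.
Arntl (chr7:113207261-113207560, plus strand), RORE: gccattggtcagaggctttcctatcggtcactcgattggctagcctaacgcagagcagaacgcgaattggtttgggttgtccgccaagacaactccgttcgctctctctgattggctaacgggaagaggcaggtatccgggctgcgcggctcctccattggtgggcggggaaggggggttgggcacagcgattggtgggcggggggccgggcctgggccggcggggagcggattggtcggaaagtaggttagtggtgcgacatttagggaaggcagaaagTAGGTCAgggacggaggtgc
Nfil3 (chr13:52980990-52981289, minus strand), RORE: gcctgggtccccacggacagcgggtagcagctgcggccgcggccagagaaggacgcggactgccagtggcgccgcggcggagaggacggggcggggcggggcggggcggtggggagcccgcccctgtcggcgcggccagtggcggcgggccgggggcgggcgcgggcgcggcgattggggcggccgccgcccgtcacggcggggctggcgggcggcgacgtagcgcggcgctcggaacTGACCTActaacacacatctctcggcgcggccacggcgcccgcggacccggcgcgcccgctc
Per3 (chr4:151044616-151044915, minus strand), D-box: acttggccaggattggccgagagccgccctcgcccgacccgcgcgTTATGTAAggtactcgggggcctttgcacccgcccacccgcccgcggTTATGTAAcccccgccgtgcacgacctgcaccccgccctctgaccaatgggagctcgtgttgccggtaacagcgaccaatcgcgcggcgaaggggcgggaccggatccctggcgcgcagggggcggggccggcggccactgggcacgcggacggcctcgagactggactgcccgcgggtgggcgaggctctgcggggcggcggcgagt
Ciart (chr3:95882179-95882478, minus strand), E-box: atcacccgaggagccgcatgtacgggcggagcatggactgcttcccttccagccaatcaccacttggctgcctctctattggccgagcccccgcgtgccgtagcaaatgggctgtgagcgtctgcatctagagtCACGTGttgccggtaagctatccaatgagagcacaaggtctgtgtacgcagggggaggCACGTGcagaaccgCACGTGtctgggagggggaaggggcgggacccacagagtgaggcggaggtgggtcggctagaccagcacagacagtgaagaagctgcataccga
Tef (chr15:81802423-81802722, plus strand), E-box: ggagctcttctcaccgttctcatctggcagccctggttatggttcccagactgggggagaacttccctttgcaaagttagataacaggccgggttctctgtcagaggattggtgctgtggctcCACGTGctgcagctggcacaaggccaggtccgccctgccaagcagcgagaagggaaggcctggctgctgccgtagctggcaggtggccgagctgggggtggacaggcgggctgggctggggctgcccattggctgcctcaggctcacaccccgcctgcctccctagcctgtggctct

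The genes to print were chosen by hand, and all had a called difference, so element and class are set side by side as a description only. An E-box was in 6 promoters of the clock and output genes, of which 1 of Tef and 1 of Ciart are printed. Of the genes printed with a RORE, Arntl was reversed and Nfil3 was a gained fall. Per3, printed with D-boxes, lost its wild-type fall, and of the genes printed with E-boxes Tef lost its wild-type fall and Ciart was a gained rise. The E-box was in 19.4% of the 31 promoters found for 22 of the 27 clock and output genes, the D-box in 6.45% and the RORE in 6.45%. In all 32851 promoters of the table the shares were 7.15%, 0.938% and 2.61%, and in those of tested genes 9.40%, 0.551% and 1.96%. A match of letters is a description and not evidence of binding.

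DNA replication genes were the largest group of lost and reversed rises among the lists examined. In wild type 29 of 39 tested genes rose and none fell, and all 39 had a change above 0, with a median of 0.38. In knockout 7 rose, 10 fell and the median was -0.036. Over all tested genes 2.41% rose and 1.55% fell in wild type, and 20.9% rose and 18.4% fell in knockout. The difference was negative and called in 23 of 39, beside 10.1% of all tested genes. It was positive and called in none, beside 10.2%. The median difference was -0.39, beside 0.0385 over all tested genes. Of the 23, 12 were lost, 8 reversed, 2 gained and 1 in neither class. The list was put together with earlier results of these data known, so its counts are no independent evidence of its direction. The 29 rises became 14 without wild-type 30 h replicate 3, 18 without wild-type 30 h replicate 1 or wild-type 18 h replicate 2 and 19 without wild-type 18 h replicate 1, while the 23 negative differences ran from 19 to 25 over all arrays left out. Positive calls numbered 2 without knockout 18 h replicate 1 and 1 without wild-type 18 h replicate 3 or wild-type 30 h replicate 3.

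Pcna, the sliding clamp of the replication fork, rose in wild type from 8173, 7857 and 8308 to 10070.1, 9800.1 and 10266 and had 7427, 7796 and 7905 and then 7662, 7460.2 and 7320.5 in knockout. Its changes were 0.31 (adjusted p = 0.0021) and -0.043 (adjusted p = 0.525), and its difference was -0.35 (adjusted p = 0.00182), with -0.36 from its other probe set. Rrm1, a subunit of the reductase that makes deoxynucleotides, went from 4795, 4499 and 4703 to 5941, 5712 and 6075 in wild type and from 6221, 6687 and 6956 to 6723, 6908 and 6240.1 in knockout, a difference of -0.34 (adjusted p = 0.00893). Both genes stayed lost in all 12 fits.

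Pold1, the catalytic subunit of DNA polymerase delta, had the most negative difference of the list, -0.97 ± 0.12 (SE, adjusted p = 0.000139). It fell in knockout from 1740.3, 1921 and 1957 to 1303, 1226 and 1124 (-0.62, adjusted p = 4.83e-05). In wild type it went from 855, 809.7 and 909 to 1029.8, 1059.6 and 1213 (0.35, adjusted p = 0.0343), a change that did not pass without any 1 of knockout 18 h replicate 2, knockout 30 h replicate 2, wild-type 18 h replicates 1 and 2 and wild-type 30 h replicates 1, 2 and 3 (adjusted p = 0.0503 to 0.182). Cdt1, which licenses replication origins, had a difference of -0.92 (adjusted p = 0.000375) and Rpa2, a subunit of the protein that coats single-stranded DNA, one of -0.92 (adjusted p = 0.000951). Cdt1 stayed reversed in 7 of the 12 fits and Rpa2 in 8 of the 12.

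Not every replication gene behaved alike. The replication genes with differences above 0 were Ccne1, Rrm2 and Tyms, named here after their values were seen, with changes of 0.58 and 0.67, 0.44 and 0.65, and 0.42 and 0.81 in wild type and knockout, and none of their differences passed. Genes of mitosis were listed apart. Of 37 tested, 6 had a called difference, all negative, beside 10.1% negative calls over all tested genes, with a median of -0.14, led by Cdca8 and Birc5, subunits of the chromosomal passenger complex, with differences of -0.68 and -0.62 (adjusted p = 0.00381 and 0.0144). Cdca8, a gained fall, kept its class in 8 of the 12 fits with 1 array left out. The count of 6 was 11 without knockout 18 h replicate 1 and 3 without any of knockout 18 h replicates 2 and 3, knockout 30 h replicate 3, wild-type 18 h replicate 3 and wild-type 30 h replicates 2 and 3.

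**Figure D3:**
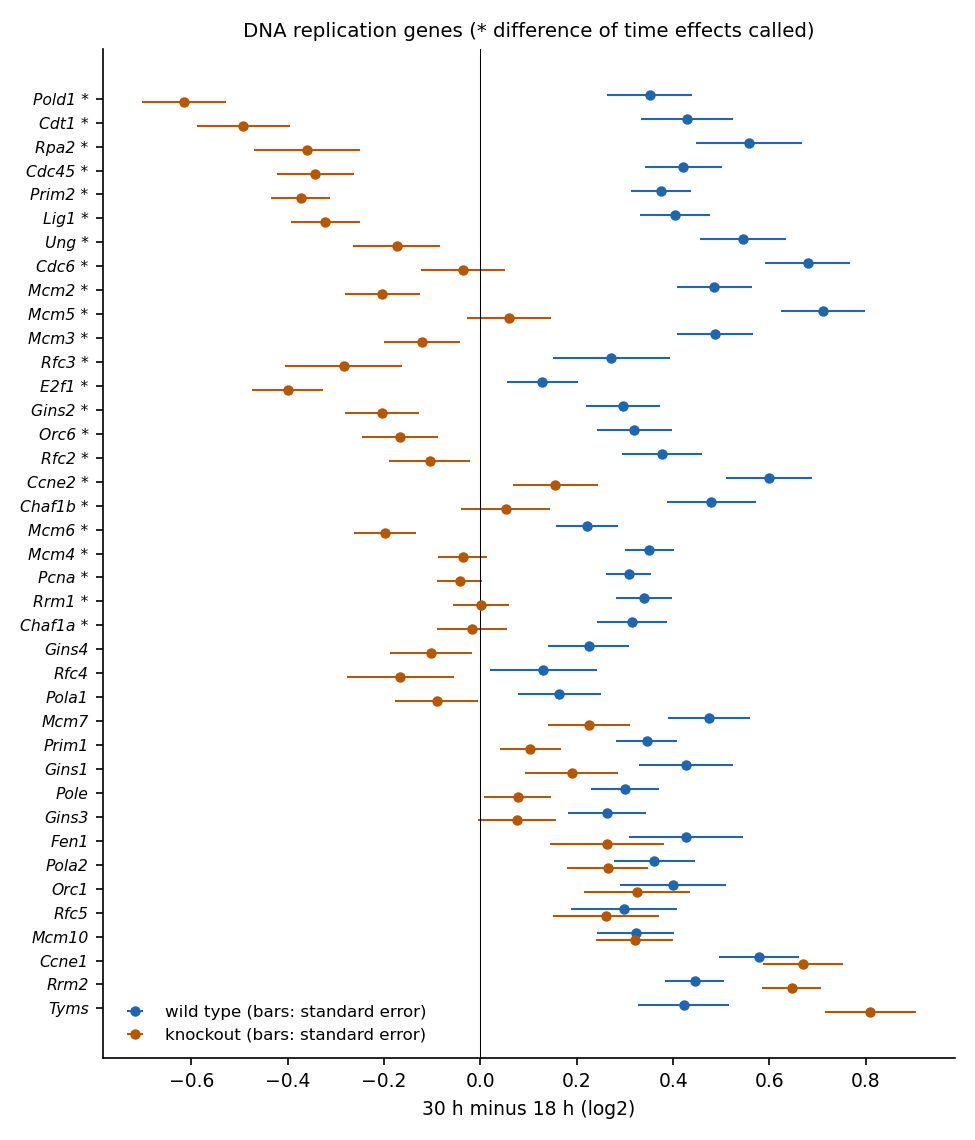
Log2 change from 18 h to 30 h of the 39 tested DNA replication genes in wild type (blue) and knockout (brown), ordered by the difference of time effects, with bars for the standard error from limma and an asterisk for the 23 called differences. All 39 wild-type points lie to the right of 0, and 22 of the knockout points lie to its left.

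E2F factors are known drivers of replication genes, and one form of their site was searched as TTTCNCGC on both strands, apart from the clock elements. This element was in 28.6% of 35 promoters found for 31 of the 39 genes, in 10.4% of 135 promoters of lost or reversed wild-type risers, in 3.40% of promoters of tested genes and in 2.09% of all promoters. The first 2 shares are not separate, since the 12 lost and 8 reversed genes of the list are among the 127 lost or reversed risers. A match of letters is not evidence of binding, and a role of E2F factors was not tested. Cdc6, which loads the replicative helicase, and Mcm5, a subunit of that helicase, were chosen after their values were seen, as lost rises with such an element, 138 and 153 bases before the start. Cdc6 went from 679.6, 699 and 625 to 1062, 989.6 and 1192 in wild type and from 1004, 994 and 1135 to 1061, 980.5 and 1009 in knockout, a difference of -0.72 (adjusted p = 0.00109). Mcm5 went from 1800.2, 1729 and 2190.3 to 3002, 3038 and 3319 and from 2651, 2709 and 2856 to 3069, 2870.1 and 2634, a difference of -0.65 (adjusted p = 0.00184). In both genes every knockout array at 18 h was above every wild-type array of that time. Capitals mark the element, on the opposite strand in Cdc6.
Cdc6 (chr11:98907901-98908200, plus strand), E2F site: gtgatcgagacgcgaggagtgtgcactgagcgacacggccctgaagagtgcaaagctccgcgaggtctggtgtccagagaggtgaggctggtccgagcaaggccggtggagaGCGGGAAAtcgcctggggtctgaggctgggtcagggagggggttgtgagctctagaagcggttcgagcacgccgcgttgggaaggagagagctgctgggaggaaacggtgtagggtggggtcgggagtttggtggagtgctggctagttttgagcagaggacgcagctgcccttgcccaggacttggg
Mcm5 (chr8:75109259-75109558, plus strand), E2F site: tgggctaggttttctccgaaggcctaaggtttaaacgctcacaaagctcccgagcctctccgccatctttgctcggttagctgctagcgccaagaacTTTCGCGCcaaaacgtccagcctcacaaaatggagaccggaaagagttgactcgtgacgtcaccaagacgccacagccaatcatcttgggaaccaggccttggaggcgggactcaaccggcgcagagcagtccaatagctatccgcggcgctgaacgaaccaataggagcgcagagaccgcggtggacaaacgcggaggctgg

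Outside the clock, the lost fall with the largest difference was that of Ggt5, a gamma-glutamyltransferase gene. It went from 2745, 3346 and 3359 to 1208, 1556 and 1479 in wild type (-1.15, adjusted p = 4.63e-05), while knockout arrays lay at 225, 188 and 197 and 219.9, 197 and 215, near the filter level and far below wild type at both times. The difference was 1.20 ± 0.16 (SE, adjusted p = 0.000162). Sorbs2, which encodes an adaptor of actin filaments, fell from 978, 1175 and 879 to 479, 546 and 516 in wild type and had 1162, 1020.4 and 981 and then 942, 1151 and 975 in knockout, a difference of 0.90 (adjusted p = 0.00107). In Sorbs2 the knockout arrays of both times overlapped the wild-type arrays of 18 h. Ccn5, a secreted matrix-associated protein gene, fell from 949, 1023 and 1004 to 602, 578 and 622 and had 445, 424 and 359 and then 393, 400.0 and 526 in knockout, a difference of 0.80 (adjusted p = 0.00214). All 3 genes stayed lost in all 12 fits.

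The metallothionein gene Mt2, whose protein binds zinc, fell in wild type from 2831, 2466 and 2514 to 1566, 1562 and 1895, and knockout arrays held 12530.1, 11373 and 11599 and then 12028, 11838 and 11061, a difference of 0.61 (adjusted p = 0.00135). Bnip3, a mitochondrial protein gene induced by low oxygen, fell from 5988, 5199.5 and 5232 to 3854, 3648 and 4000.0 in wild type and had 8612, 8096 and 8476 and then 8670.0, 9296 and 8909 in knockout, a difference of 0.60 (adjusted p = 0.000335). In both genes every knockout array was above every wild-type array.

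Among lost rises, Chac1 and Id2 had the largest differences. Chac1, a glutathione-degrading enzyme gene induced by amino acid stress, rose in wild type from 1119, 1168 and 1597 to 2197, 1994 and 2377 (0.77, adjusted p = 0.00447) and went from 1509, 1599 and 1679 to 1147, 1535 and 1143 in knockout (-0.33, adjusted p = 0.053). Its difference was -1.10 (adjusted p = 0.000922), and its knockout change passed, as a fall, without any 1 of knockout 18 h replicate 1, knockout 30 h replicate 2 and wild-type 18 h replicate 3 (adjusted p = 0.0104 to 0.0491). Id2, an inhibitor of helix-loop-helix factors, rose from 906, 839 and 829.5 to 1429.8, 1436 and 1568 in wild type and went from 853, 957 and 1079.5 to 1089, 688 and 742 in knockout, where replicate 1 at 30 h overlapped the 18 h arrays. Its difference was -0.99 (adjusted p = 0.00193), and without knockout 30 h replicate 1 its knockout change passed as a fall (-0.42, adjusted p = 0.0053). Ezh2, the methyltransferase of Polycomb complexes, rose from 3881, 3756 and 3596 to 4727, 4628 and 4582 and had 5522, 5766 and 5784 and then 5249, 5512 and 5725 in knockout, a difference of -0.36 (adjusted p = 0.00416).

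Flrt2, Mthfd2 and Fbxo5 were the other lost rises of largest difference, at -0.88, -0.79 and -0.73 (adjusted p = 0.0208, 0.00262 and 0.00141). Flrt2, an adhesion protein gene, had a difference that did not pass without any 1 of knockout 30 h replicate 1 and wild-type 30 h replicates 2 and 3 (adjusted p = 0.0514 to 0.056), and its wild-type rise did not pass without any 1 of wild-type 18 h replicates 2 and 3 and wild-type 30 h replicates 2 and 3 (adjusted p = 0.0718 to 0.135). Flrt2, Mthfd2 and Fbxo5 kept their class in 7 of the 12, 10 of the 12 and 11 of the 12 fits. Mthfd2 encodes a mitochondrial folate enzyme and Fbxo5 an inhibitor of the anaphase-promoting complex.

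The reversed rise with the largest difference was that of Ccn2. Ccn2, the gene of connective tissue growth factor, had 762, 702 and 582 in wild type at 18 h and 1048, 935 and 1138 at 30 h, and 5636, 9134 and 8880.1 and then 2902, 3622 and 3145 in knockout. Every knockout array was above every wild-type array, and the changes were 0.60 (adjusted p = 0.0365) and -1.26 (adjusted p = 1.16e-05). Its difference was -1.86 ± 0.21 (SE, adjusted p = 6.12e-05). Its wild-type rise did not pass without any 1 of wild-type 18 h replicates 1, 2 and 3 and wild-type 30 h replicates 1, 2 and 3 (adjusted p = 0.0508 to 0.164), while the difference passed in every such fit.

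Atf3, a stress-induced transcription factor gene, rose in wild type from 872, 877 and 1119 to 1573, 1337 and 1789 (0.70, adjusted p = 0.00608) and fell in knockout from 1450.5, 1864 and 1839 to 836, 841 and 719 (-1.08, adjusted p = 8.57e-06). Its groups traded places, with knockout above wild type at 18 h and below it at 30 h. The difference was -1.79 ± 0.18 (SE, adjusted p = 1.64e-05). Klf5, a zinc finger factor gene of proliferating cells, rose from 424, 491 and 403 to 705, 662 and 713 and fell from 2993, 3975 and 3904 to 1957, 2076 and 2172, a difference of -1.44 (adjusted p = 2.42e-05). Ptgs2, the gene of the inducible prostaglandin synthase COX2, rose from 2472, 2509.6 and 2668 to 4094, 3961 and 3984 and fell from 8684, 10342 and 10597 to 7805, 7978 and 7648, a difference of -0.98 (adjusted p = 1.34e-05). These 3 genes stayed reversed in all 12 fits with 1 array left out.

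Prr32 and Upp1, a uridine phosphorylase gene, completed the 5 reversed rises of largest difference, at -1.53 and -1.48 (adjusted p = 4.16e-05 and 0.00101), and stayed reversed in 6 of the 12 and 5 of the 12 fits. The 6 genes that fell in wild type and rose in knockout included Egln3 and Ak4, both known as targets of the low-oxygen response. Egln3, a prolyl hydroxylase gene, fell from 1289, 1421 and 1277 to 776, 844 and 885 in wild type (-0.66, adjusted p = 0.003). In knockout it had 5869, 4183 and 4182 and then 5991, 6175 and 6235 (0.39, adjusted p = 0.00781), a change that did not pass without knockout 18 h replicate 2 (adjusted p = 0.053), and replicate 1 at 18 h lay near the 30 h arrays. Its difference was 1.05 (adjusted p = 0.000303). Rcor2, Cstad, Ak4 and Nadk2 had differences of 1.18, 1.13, 0.79 and 0.69 (adjusted p = 0.000756, 0.000191, 0.0013 and 0.000506) and stayed reversed in 6 of the 12, 10 of the 12, 4 of the 12 and 8 of the 12 fits.

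Of the 12 most negative differences, 10 belonged to gained falls. Tnfsf18, a ligand gene of the tumour necrosis factor family, had the most negative difference of all called genes. Its intensity was 59.6, 48.9 and 64.8 in wild type at 18 h and 50.8, 78.9 and 68.5 at 30 h, all below the filter level, and 1509.7, 3350.4 and 3715 and then 204, 241 and 234 in knockout. Every knockout array was above every wild-type array, and knockout 18 h replicate 1 was the lowest of its group. The difference was -3.61 ± 0.34 (SE, adjusted p = 1.05e-05), and ran from -4.02 to -3.37 with 1 array left out.

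Txnip, the thioredoxin-binding arrestin gene that responds to glucose, had 7369.9, 7237 and 7331 and then 6116, 5817 and 6494 in wild type and fell from 3111, 7354 and 7169 to 778, 697 and 635 in knockout (-2.94, adjusted p = 1.8e-07). At 18 h knockout replicates 2 and 3 stood at the wild-type level and replicate 1 below it, and at 30 h all knockout arrays were far below wild type. The difference was -2.68 ± 0.30 (SE, adjusted p = 5.22e-05). Arrdc4, a related glucose-responsive arrestin gene, had a difference of -1.64 (adjusted p = 0.000781), from 778, 1552 and 1625 to 431, 399 and 336 in knockout, beside a wild-type change of -0.014. In the list of 8 glucose-sensing genes these were the 2 that passed, and the median difference was -0.16.

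Gadd45a, a growth arrest gene induced by DNA damage and stress, had 1003, 861 and 949 and then 1197, 1041 and 1348 in wild type and fell from 1160.3, 2181 and 2296 to 433, 442 and 405 in knockout, a difference of -2.38 (adjusted p = 4.4e-05). Serpinb1a, a protease inhibitor gene, had 3009, 2699 and 3009 and then 3213, 3084 and 3184 in wild type and fell from 598, 758 and 625 to 136, 137 and 95.6 in knockout, a difference of -2.41 (limma adjusted p = 1.46e-06). Its knockout arrays at 30 h were below the filter level. Nos2, the inducible nitric oxide synthase gene, fell from 2302, 1886 and 1912 to 579, 519 and 469.7 in knockout and had a wild-type change of -0.092, a difference of -1.83 (adjusted p = 6.44e-06). Aldoc, a glycolytic aldolase gene, fell from 1061, 1147 and 1196 to 303, 338 and 312 and had 193, 158 and 131 and then 170.3, 168 and 170.1 in wild type, a difference of -1.87 (adjusted p = 6.44e-06).

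Kctd16, Car6, Ptx3 and Stbd1 completed the 12 most negative, with Ccn2 and Atf3, at -1.94, -1.80, -1.79 and -1.75 (adjusted p = 0.00183, 0.00104, 3.01e-05 and 1.55e-05). Kctd16 encodes an auxiliary subunit of GABA-B receptors, Car6 a secreted carbonic anhydrase, Ptx3 a soluble pattern-recognition protein and Stbd1 a glycogen-binding protein. Over all genes, 1178 of the 1411 negative differences were gained falls.

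**Figure D4:**
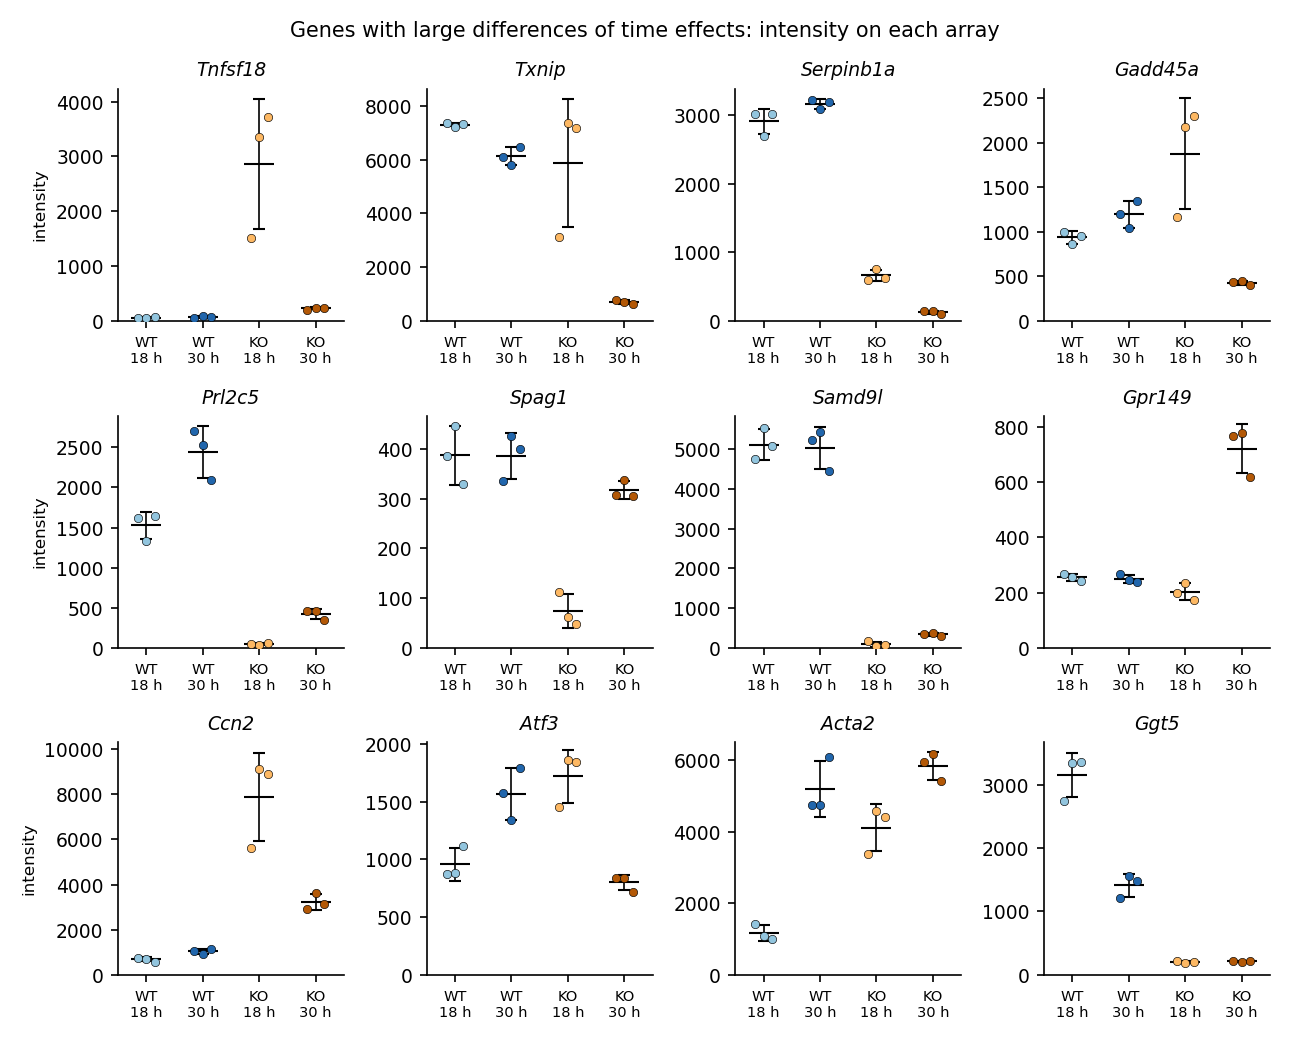
Intensity (linear axis from 0) of 12 genes with large differences of time effects on each of the 12 arrays, by genotype and time, with points for arrays, a horizontal line for the mean and bars for the SD (n = 3). In Tnfsf18, Txnip and Gadd45a the knockout 18 h group holds 1 low array and the 30 h arrays are lower still, and in Acta2 the wild-type arrays at 30 h overlap those of knockout.

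The largest positive differences were gained rises, with Prl2c5 as an exception that rose in both genotypes. Prl2c5, a prolactin family gene, had 1614, 1336 and 1639 and then 2709, 2530.0 and 2088 in wild type and rose from 42.9, 34.6 and 55.5 to 463, 462 and 352 in knockout, a difference of 2.21 ± 0.20 (SE, adjusted p = 8.03e-06). Every knockout array at 18 h was below the filter level. Near-identical relatives of Prl2c5 could share the signal of the probe set. Its wild-type rise of 0.67 did not pass without any 1 of wild-type 18 h replicate 2 and wild-type 30 h replicates 1 and 2 (adjusted p = 0.0559 to 0.0884).

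Samd9l, an interferon-induced gene, rose in knockout from 162, 42.8 and 63.3 to 352, 369 and 293 and had 4743, 5523 and 5068 and then 5241, 5443 and 4442 in wild type, so that knockout stayed far below wild type at both times. Its difference was 1.93 (adjusted p = 0.00185), and ran from 1.59 to 2.39 with 1 array left out. Spag1, a dynein assembly gene, rose from 112, 61.2 and 47.5 to 308, 339 and 306 in knockout, up to near the wild-type arrays of 386, 447 and 329 and 336, 426 and 399.9, a difference of 1.96 (limma adjusted p = 0.000224). In Samd9l and Spag1 every knockout array at 18 h was below the filter level. Gpr149, an orphan receptor gene, rose from 197, 236 and 174 to 766, 777 and 618 in knockout, above the wild-type arrays of 268, 255 and 241 and 266, 245 and 238, a difference of 1.78 (adjusted p = 8.03e-06).

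Ppbp and Cxcl5, chemokine genes that draw neutrophils, had differences of 1.85 and 1.66 (adjusted p = 8.08e-05 and 0.00193). Ppbp rose from 255, 162 and 168 to 888, 619 and 625 in knockout and Cxcl5 from 541, 239 and 246 to 1378, 1034 and 921, in each case with replicate 1 the highest at both times. Macc1, Hoxc5, Ttc30b, Fzd6, Trmt12 and Casd1 completed the 12 most positive, at 1.76, 1.74, 1.59, 1.53, 1.52 and 1.42 (adjusted p from 0.000732 to 0.00785). Fzd6 encodes a WNT receptor, Ttc30b a protein of ciliary transport, Trmt12 a tRNA-modifying enzyme and Casd1 a sialic acid acetyltransferase.

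Among genes that changed the same way in both genotypes, Acta2, the smooth muscle actin of contractile fibroblasts, had the largest wild-type change. It rose in wild type from 1404, 1086 and 1001 to 4732, 4731 and 6082 (2.14, adjusted p = 2.84e-07) and in knockout from 3370.1, 4563 and 4403 to 5936, 6163 and 5401 (0.51, adjusted p = 0.00504). The knockout arrays at 18 h lay above every wild-type array of 18 h and below every one of 30 h, and the difference was -1.63 ± 0.18 (SE, adjusted p = 5.22e-05). Of the 31 shared rises, 28 were larger in knockout, and of the 27 shared falls, 25 were more negative there. Dkc1, a ribosomal and telomerase RNA-binding gene, rose from 1847, 1499 and 1603 to 2381, 2050.1 and 2346 in wild type and from 929, 829 and 769.8 to 2327, 2279.8 and 2265 in knockout, a difference of 0.98 (adjusted p = 0.000191).

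Ddx21, a helicase gene of ribosome assembly, and Hsph1, a chaperone gene of the heat shock response, had differences of 0.97 and 0.90 (adjusted p = 0.000196 and 7.7e-05). In Dkc1, Ddx21 and Hsph1 the knockout arrays were below wild type at 18 h. The wild-type rises of Dkc1 (0.45) and Hsph1 (0.35) did not pass without any 1 of wild-type 18 h replicate 2 and wild-type 30 h replicates 1 and 3 (adjusted p = 0.0689 to 0.0733 and 0.0631 to 0.0963), and that of Ddx21 (0.35) not without any 1 of knockout 18 h replicate 2, knockout 30 h replicates 2 and 3, wild-type 18 h replicates 1, 2 and 3 and wild-type 30 h replicates 1, 2 and 3 (adjusted p = 0.0569 to 0.196). Shared falls were led by Pde9a, a cyclic GMP phosphodiesterase gene, at -1.30 (adjusted p = 0.000139), followed by Ypel2, Rcn3 and Gtdc1 at -1.12, -0.73 and -0.72 (adjusted p = 0.000809, 0.00495 and 0.0135). These 4 kept their class in 7 of the 12, 6 of the 12, 7 of the 12 and 4 of the 12 fits with 1 array left out.

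Gene lists of pathways and complexes, put together with earlier results known, place these genes among their relatives. Each count of differences stands beside 10.2% positive and 10.1% negative calls over all tested genes. Counts of time changes stand beside 20.9% rises and 18.4% falls in knockout and 2.41% rises and 1.55% falls in wild type. In the list of sterol and fatty acid synthesis, 15 of 26 tested genes had a negative and 2 a positive called difference, with a median of -0.46. In knockout 15 fell and 4 rose, and in wild type 1 rose and none fell. The 4 knockout rises became 1 without any 1 of knockout 18 h replicates 2 and 3 and knockout 30 h replicate 2, and 2 without knockout 30 h replicate 1. The 1 wild-type rise became 2 without knockout 18 h replicate 1 and 0 without any 1 of knockout 18 h replicate 2, knockout 30 h replicate 2, wild-type 18 h replicate 2 and wild-type 30 h replicates 1, 2 and 3. Insig1, a sterol-sensing retention protein gene of the endoplasmic reticulum, had 1073, 1073 and 1058 and then 1329.9, 1416 and 1342 in wild type and fell from 1748, 2102 and 2215 to 933, 1033 and 876 in knockout, a difference of -1.42 (adjusted p = 8.03e-06). Its class, reversed, was kept in 4 of the 12 fits with 1 array left out. The sterol demethylase gene Cyp51 had a difference of -1.05 and the farnesyl diphosphate synthase gene Fdps one of -0.98 (adjusted p = 0.00108 and 7.26e-05). Both positive genes, Fasn and Scd2, make fatty acids, at 0.55 and 0.33 (adjusted p = 0.0352 and 0.0297). Fasn did not pass without any 1 of knockout 18 h replicates 2 and 3, knockout 30 h replicates 1 and 2, wild-type 18 h replicates 1, 2 and 3 and wild-type 30 h replicates 1, 2 and 3 (adjusted p = 0.0519 to 0.103), and Scd2 without any 1 of knockout 18 h replicates 2 and 3, knockout 30 h replicate 2, wild-type 18 h replicates 1 and 2 and wild-type 30 h replicates 1 and 3 (adjusted p = 0.051 to 0.0928).

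In the list of the unfolded protein response and ATF4 targets, which serve protein folding and amino acid supply, 14 of 35 genes had a negative and 3 a positive called difference, with a median of -0.25. Ddit3, the gene of the stress factor CHOP, had 1159, 1143 and 1492 and then 1370.4, 1315 and 1476 in wild type and fell from 779, 1628 and 1765 to 389, 482 and 394 in knockout, with knockout 18 h replicate 1 far below the other 2, a difference of -1.75 (adjusted p = 0.00104). Cth, an enzyme gene of cysteine supply, had a difference of -1.31, and Trib3, a pseudokinase gene induced by ATF4, one of -1.14 (adjusted p = 0.000171 and 0.000494). Trib3 was reversed, a class kept in 4 of the 12 fits. The positive members, Dnajb11, Dnajc3 and Pdia3, are folding helpers of the endoplasmic reticulum, at 0.66, 0.46 and 0.27 (adjusted p = 0.0044, 0.013 and 0.0448). Pdia3 did not pass without any 1 of knockout 18 h replicates 1 and 2, knockout 30 h replicates 1 and 2, wild-type 18 h replicates 1 and 2 and wild-type 30 h replicates 1, 2 and 3 (adjusted p = 0.051 to 0.124).

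In the list of YAP and TGF-beta targets, which respond to tension and growth factor signals, 8 of 13 genes had a negative and 1 a positive called difference, with a median of -0.46. Ccn1, a matricellular protein gene related to Ccn2, had 1872, 1759 and 1929 and then 2396, 2374 and 2661 in wild type and fell from 9596, 12708 and 11925 to 5293, 5966 and 5544 in knockout, a difference of -1.43 (adjusted p = 8.03e-06). Ccn1 was reversed and kept that class in 8 of the 12 fits. Edn1, the endothelin gene, was below the filter level in wild type and fell from 899, 1564 and 1488 to 356, 583 and 467 in knockout, a difference of -1.23 (adjusted p = 0.00454). Lats2 and Amotl2, which restrain YAP, had differences of -0.47 and -0.41 (adjusted p = 0.016 and 0.0115), and Lats2 did not pass without knockout 18 h replicate 2 (-0.41, adjusted p = 0.0551). The positive member was Ajuba (0.41, adjusted p = 0.0479), which passed in 2 of the 12 fits with 1 array left out.

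Immediate early genes, the first to answer serum, had 11 negative and 2 positive called differences among 30, with a median of -0.31. Egr1 fell in knockout from 2302, 3021 and 3029 to 1216, 1459.9 and 1063 and had 1269, 1371 and 1373 and then 1484, 1496 and 1573 in wild type, a difference of -1.33 (adjusted p = 8.26e-05). Zfp36, whose protein shortens the life of cytokine mRNAs, fell from 1345, 1529.9 and 1961 to 718, 765 and 626 in knockout and had a wild-type change of -0.0085, a difference of -1.16 (adjusted p = 0.000422). At 30 h the knockout arrays of Egr1 were below those of wild type and those of Zfp36 overlapped them. The positive members, Fosl1 and Fosl2, had 0.43 and 0.38 (adjusted p = 0.0227 and 0.0383), and did not pass without any 1 of knockout 18 h replicates 2 and 3, knockout 30 h replicate 2 and wild-type 30 h replicate 2 (adjusted p = 0.0543 to 0.0651) and without any 1 of knockout 18 h replicates 2 and 3, knockout 30 h replicates 1 and 2, wild-type 18 h replicates 2 and 3 and wild-type 30 h replicates 1, 2 and 3 (adjusted p = 0.0524 to 0.114).

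**Figure D5:**
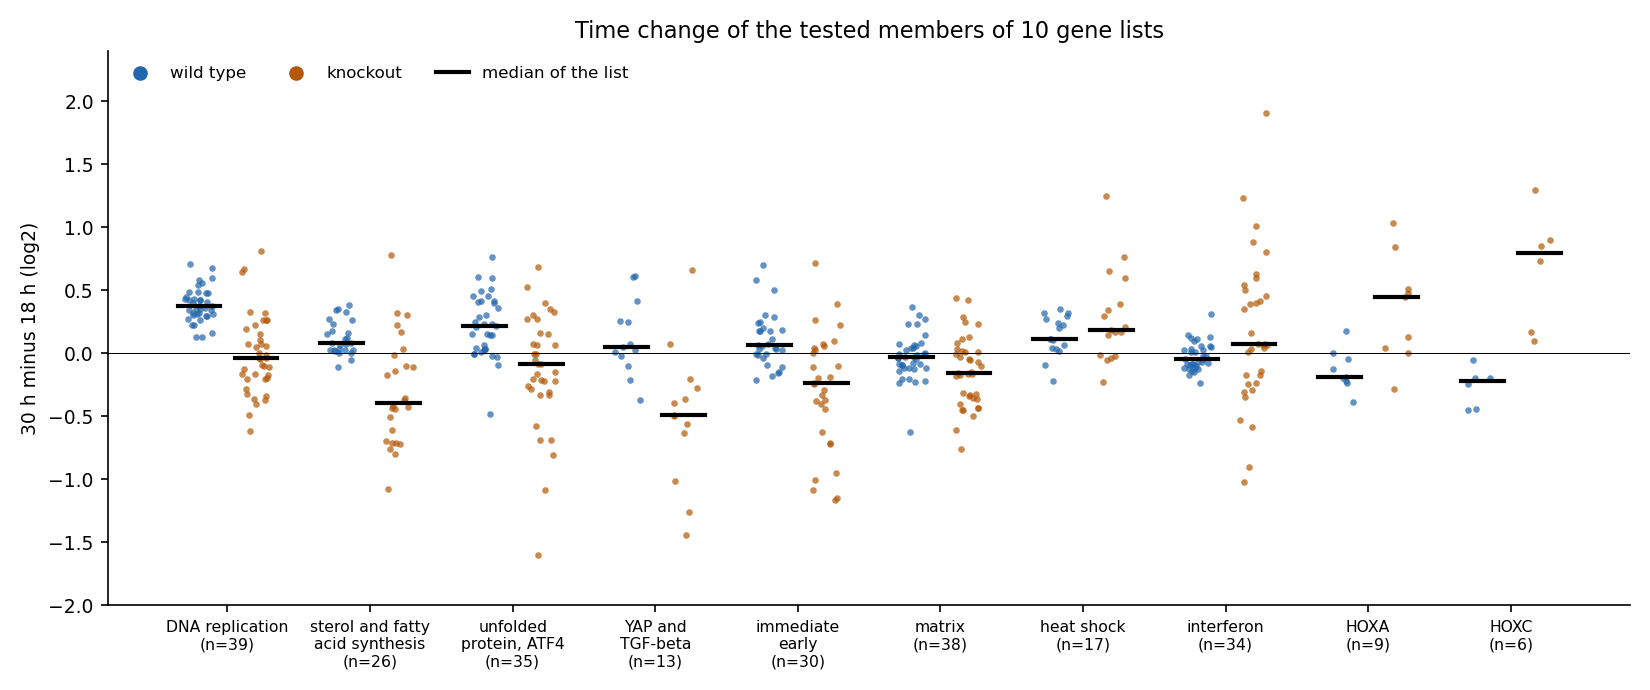
Log2 change from 18 h to 30 h of the tested members of 10 gene lists in wild type (blue) and knockout (brown), with a black line at the median of each list. The lists of DNA replication, sterol and fatty acid synthesis, ATF4 and YAP targets lie lower in knockout than in wild type, and those of HOXA and HOXC genes higher, with HOXC medians of -0.22 and 0.79.

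Among genes of p53 targets and cell cycle inhibitors, 9 of 25 had a negative and 3 a positive called difference, with a median of -0.16. Beside Gadd45a these included its relative Gadd45b at -1.08 and the desmosomal apoptosis gene Perp at -0.80 (adjusted p = 0.004 and 0.00496). The positive members were Sesn1, Rbl1 and Ccng1, at 0.61, 0.46 and 0.26 (adjusted p = 0.0016, 0.0246 and 0.00683), and Rbl1 did not pass without any 1 of knockout 18 h replicates 2 and 3, knockout 30 h replicates 2 and 3, wild-type 18 h replicates 1 and 2 and wild-type 30 h replicate 1 (adjusted p = 0.0505 to 0.07).

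Of 28 chemokine and inflammation genes, 8 had a negative and 3 a positive called difference, with a median of -0.072. The growth factor gene Csf2 fell in knockout from 341, 723 and 841 to 257, 223 and 220.4 and was below the filter level in wild type, a difference of -1.57 (adjusted p = 0.00516), with knockout 18 h replicate 1 less than the other 2. In the tumour necrosis factor family 6 of 16 were negative and none positive, with a median of -0.14. Fas, a death receptor gene, had -0.88 and Tnfrsf9, a costimulatory receptor gene, -0.86 (adjusted p = 0.00362 and 0.00101). Tnfrsf12a, the receptor of TWEAK, rose in both genotypes, from 1097, 1149 and 1036 to 1967, 1929 and 2376 in wild type and from 1759, 2207 and 2099 to 2895, 2443 and 2502 in knockout, a difference of -0.55 (adjusted p = 0.0127).

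Matrix genes had 11 negative and 2 positive called differences among 38, with a median of -0.069, and the 2 became 5 without knockout 18 h replicate 1. The fibrillar-associated collagen gene Col12a1 fell in knockout from 3142, 3228 and 3045 to 1791, 2217 and 2182 and had a wild-type change of 0.23, a difference of -0.84 (adjusted p = 0.000942). Col4a2 of the basement membrane and Col8a1 had -0.73 and -0.72 (adjusted p = 0.000353 and 0.00119), and stayed reversed in 5 of the 12 and 8 of the 12 fits. The positive members were Vcan (0.47, adjusted p = 0.0151), a large proteoglycan gene, and Dcn (0.60, adjusted p = 0.026), which did not pass without any 1 of knockout 18 h replicate 2, knockout 30 h replicate 1, wild-type 18 h replicate 1 and wild-type 30 h replicates 1 and 2 (adjusted p = 0.0533 to 0.0741).

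Among 31 protease and inhibitor genes, 9 were negative and 3 positive, with a median of -0.21. The tissue plasminogen activator gene Plat fell in knockout from 2690.4, 3353 and 3503 to 1451, 1627 and 1429 and had 1838, 1639 and 1799.5 and then 2129.6, 2137 and 2179 in wild type, a difference of -1.36 (adjusted p = 1.11e-05). The collagenolytic protease gene Mmp14 had 0.56 and the stromelysin gene Mmp3 had 1.01 (adjusted p = 0.00269 and 0.00133). Mmp3 rose from 529, 581 and 692 to 1333, 1203 and 949 in knockout and was below the filter level in wild type.

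Genes of glycolysis and the low-oxygen response were split. Of 29, 6 were positive and 4 negative, with a median of 0.14. The hydroxylase genes Egln3 and Egln1, which mark the low-oxygen factor for destruction, had 1.05 and 0.82 (adjusted p = 0.000303 and 0.00136), while the glycolytic regulator gene Pfkfb3 fell in knockout from 502, 508 and 466 to 233, 275 and 234, a difference of -0.91 (adjusted p = 0.000191). Ndrg1, another gene of the low-oxygen response, had -0.61 (adjusted p = 0.00119).

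Heat shock genes encode chaperones that refold proteins. In knockout 9 of 17 tested rose and none fell, beside 20.9% and 18.4% of all tested genes. For the difference, 4 were positive and none negative, with a median of 0.11. A negative call appeared without any 1 of knockout 18 h replicate 1, knockout 30 h replicate 1 and wild-type 18 h replicate 3, and 1 fall in knockout without knockout 18 h replicate 1. The 4 became 2 without knockout 18 h replicate 2, knockout 30 h replicate 2, wild-type 18 h replicate 1 or wild-type 30 h replicate 2. Hsph1 rose in knockout from 1319, 1256 and 1183 to 3135, 2823 and 3040.0 and went from 1749, 1628 and 1510.5 to 2153, 1984 and 2094 in wild type. Its co-chaperone relative Dnaja1 rose from 3711, 3774 and 3879 to 6437, 6587 and 6269 in knockout and went from 4266, 4150.0 and 5066 to 5797, 5604 and 5096 in wild type, a difference of 0.47 (adjusted p = 0.00468). The heat shock element, searched on both strands, was in 28.6% of 21 promoters found for 14 of the 17 genes and in 0.603% of all promoters. Other lists held few matches. The sterol regulatory element (TCACNCCAC) was in 1 of 25 promoters (4.0%) of the sterol and fatty acid list, beside 1.16% for tested genes. The element TGACGTCA was in 1 of 34 promoters (2.94%) of the unfolded protein and ATF4 list, beside 2.86% for tested genes. Other sites of ATF4 or of the unfolded protein response were not searched, so this share does not tell whether the list holds them. No such share was tested.

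HOX genes set position along the body axis and are known targets of MLL1. Calls were positive in the HOXA and HOXC clusters and of both signs in HOXB, and no test compared the clusters. All 6 tested HOXC genes had a difference above 0 and 4 were called, with a median of 0.998. The list held 9 HOXC genes with a probe set, and the others did not pass the intensity filter. With no filter, 4 of the 9 had a called difference, all positive, and the median was 0.418. Hoxc6 rose in knockout from 384, 303 and 264 to 617, 615 and 563 and had 4319.9, 5329.5 and 4667 and then 3891, 4749 and 3873 in wild type, a difference of 1.09 (adjusted p = 0.000538). Hoxc9, Hoxc4 and Hoxc5 had 0.90, 1.18 and 1.74 (adjusted p = 0.00112, 0.004 and 0.0017). In all 4 the knockout arrays stayed below wild type at both times.

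In the HOXA cluster 4 of 9 were positive and none negative, with a median of 0.51, led by Hoxa5, which rose from 284, 168 and 172 to 435, 453 and 403 in knockout and had 1595, 1699.8 and 1393 and then 1278, 1505 and 1324 in wild type, a difference of 1.22 (adjusted p = 0.00101). Hoxa6 and Hoxa7 had 0.89 and 0.60 (adjusted p = 0.00195 and 0.00684). HOXB genes went both ways, with 2 positive and 1 negative among 9, a median of 0.19, and 1 positive in place of 2 without any 1 of knockout 18 h replicates 1 and 2, knockout 30 h replicates 2 and 3, wild-type 18 h replicates 1 and 2 and wild-type 30 h replicates 1 and 3. Hoxb3 rose in knockout from 504, 371 and 413 to 772, 705 and 622 and Hoxb9 fell from 2424, 2639 and 2995 to 1605, 1735 and 1580.0, with differences of 0.89 and -0.71 (adjusted p = 0.00136 and 0.000711). None of 4 tested HOXD genes was called, and their median was 0.080. With no filter none of 9 HOXD genes was called, with a median of 0.111.

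Of 34 interferon-stimulated genes, 7 were positive and 5 negative, with a median of 0.074. Ifit1, an antiviral RNA-binding gene, rose in knockout from 91, 60.6 and 80.3 to 263, 148 and 209 and had 8742, 9157 and 10172 and then 8896, 9781 and 8501 in wild type, far above knockout, a difference of 1.28 (limma adjusted p = 0.000951). Every knockout array of Ifit1 at 18 h and the lowest at 30 h were below the filter level, so this rise was measured in dim signal. Tap1, a peptide transporter gene of antigen presentation, fell in knockout from 811, 837 and 899 to 426, 435 and 369, a difference of -1.14 (adjusted p = 0.000134), and the immunoproteasome gene Psmb9 had -0.83 (adjusted p = 0.00381). Over the list the 7 positive calls became 13 without knockout 18 h replicate 1, and the 5 negative calls became 3 without any of 6 arrays, which were knockout 18 h replicate 2, knockout 30 h replicates 2 and 3, wild-type 18 h replicates 1 and 2 and wild-type 30 h replicate 2.

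Among 19 genes of MLL, Polycomb and related complexes, 2 were positive and 3 negative, with a median of -0.015 that lay above 0 without any 1 of knockout 18 h replicates 2 and 3, knockout 30 h replicate 3, wild-type 18 h replicate 3 and wild-type 30 h replicates 2 and 3 (up to 0.059) and with probe sets averaged per gene (0.13). Setd1b, which encodes another H3 lysine methyltransferase, rose in knockout from 632, 399.6 and 382 to 1006, 1047 and 1123 and had 1408, 1559.6 and 1401 and then 1413, 1514 and 1404 in wild type, a difference of 1.19 (adjusted p = 0.000736), with 1.46 from its other probe set. Dot1l, another histone methyltransferase gene, and Rbbp5, a subunit of MLL complexes, fell in knockout and had differences of -0.63 and -0.53 (adjusted p = 0.00333 and 0.0119). Ezh2, described above, was the third negative member, and Kdm6a (0.42, adjusted p = 0.0169), a histone demethylase gene, the other positive one, which did not pass without wild-type 30 h replicate 3 (adjusted p = 0.0523 to 0.0523). Without knockout 18 h replicate 1 there were 4 positive and 5 negative calls, and without wild-type 30 h replicate 3 there was 1 positive call.

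Of 21 genes of glutathione and the oxidative stress factor NRF2, 2 were positive and 3 negative, with a median of -0.085. Gstm1, a glutathione transferase gene, had -0.83 and Txnrd1, the thioredoxin reductase gene, -0.48 (adjusted p = 0.000523 and 0.0142), both gained falls, and the positive members were Mt2 and Pgd. Pgd, an enzyme gene of the pentose phosphate pathway (0.63, adjusted p = 0.0227), did not pass without any 1 of knockout 18 h replicate 2, knockout 30 h replicate 1, wild-type 18 h replicates 1 and 3 and wild-type 30 h replicates 1 and 3 (adjusted p = 0.0506 to 0.0678). Of 16 genes of FOXO factors and quiescence, 4 were negative and none positive, with a median of -0.27, and 7 were negative without knockout 18 h replicate 1. Pdk4, a kinase gene that restrains pyruvate use, had -0.91 and the repressor gene Bcl6 -0.79 (adjusted p = 0.000261 and 0.00453), and Pdk4 stayed reversed in 9 of the 12 fits.

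Of 11 ID and BMP genes, 2 were negative and none positive, with a median of -0.25. These were Id2, described above, and the growth factor gene Bmp4, which fell in knockout from 2586, 2787 and 2792 to 1694, 1961 and 1941 and had 633, 648 and 629 and then 695, 696 and 639 in wild type, a difference of -0.63 (adjusted p = 0.00114). Of 13 contractile genes Acta2 alone was called, with a median of -0.060, and there were 2 negative calls when either the knockout 18 h or the knockout 30 h array numbered 1 was left out. Of 17 adipocyte genes 1 was called, with a median of 0.061. This was Lpl, the lipoprotein lipase gene, named after its value was seen, at -1.42 (adjusted p = 7.45e-06), and without wild-type 18 h replicate 3 there were 2 negative calls.

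Markers of other cell types were summed beside these results, and their called counts stand beside 20.3% over all tested genes. The sum of 11 macrophage and blood markers ran from 2989 to 4618 on knockout 18 h arrays, 2485 to 2617 on knockout 30 h arrays and 2491 to 2828 on wild-type arrays, and 5 of the 11 were below the filter level on every array. Cd68, a lysosomal protein gene, made up most of that spread. It fell in knockout from 1315, 2635 and 2964 to 897, 832 and 685 and had 1214, 1189 and 1122 and then 806, 941 and 1054 in wild type, a difference of -1.09 (adjusted p = 0.0159). Ptprc and Adgre1 were among the markers that did not pass the filter. Of 6 tested markers Cd68 was negative and 1, Cd14, a receptor gene of monocytes, was positive (0.53, adjusted p = 0.0328). Cd14 did not pass without any 1 of knockout 18 h replicate 2, knockout 30 h replicates 1 and 2, wild-type 18 h replicate 1 and wild-type 30 h replicates 1, 2 and 3 (adjusted p = 0.0581 to 0.0898), nor after any of the 3 other scalings of the arrays, so that the positive count was then 0.

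The sum of 9 neural markers was 10410 to 12360 in knockout and 1573 to 1911 in wild type, and 1 of 7 tested had a called difference, Map2, a microtubule protein gene (-0.81, adjusted p = 0.00171, fit by limma). The sum of 6 trophoblast markers, which include Prl2c5, was 719.5 to 758.7 in knockout at 18 h, 1107 to 1127 at 30 h and 1961 to 3463 in wild type. Of the 7 epithelial, 4 pericyte and muscle and 1 endothelial markers tested, none had a called difference. The part of other cells in the differences of time effects was not tested.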

How the data were processed

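Gene expression was measured on 12 Affymetrix arrays, 3 for each of 2 genotypes and 2 times. The deposited intensity values come from Affymetrix Expression Console 1.1 with PLIER 2.0, per the submitters' processing notes. How arrays were scaled to each other is not stated there, and the table was used as deposited, with 16 added before log2.

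Of 35557 probe sets, 21789 carried 1 gene symbol, 1621 several and 12147 none listed, and 21698 were matched to RefSeq (GRCm38.p6). Each of 19938 genes kept its probe set of highest mean, and genes at or above the 30th percentile (intensity 174.8) were tested. limma 3.58.1 in R 4.3.3 fitted 4 group means with an intensity trend, and p-values were adjusted by Benjamini-Hochberg over 13956 genes. The procedure was tested on simulated data.

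The members and the gene lists were chosen with earlier results of these data known. Named genes were Kmt2a, the 12 highest and 12 lowest called differences (predicted genes passed over), the 5 largest in each class and direction, every tested clock gene, up to 3 highest and 3 lowest called members of other lists, and the fibroblast markers. Of 701 list entries, 44 had no probe set with 1 symbol. Alternatives changed the offset, filter, scaling, probe set rule, eBayes settings, weights, block and arrays used. Promoter sequences were credited to RefSeq and searched as letters.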

Additional observations from a re-analysis of the deposited data

Results flagged for a closer look

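The results here were picked out because the time change differed between the genotypes by a test of the difference itself, in limma with an adjusted p under 0.05. The call covered 2838 of 13956 genes, and the values are log2 differences of time effects, knockout minus wild type.

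Among the largest differences above 0 were Prl2c5 (2.21), Spag1 (1.96), Samd9l (1.93), Ppbp (1.85), Gpr149 (1.78), Macc1 (1.76), Hoxc5 (1.74), Cxcl5 (1.66), Ttc30b (1.59), Fzd6 (1.53), Trmt12 (1.52) and Casd1 (1.42). The largest below 0 were Tnfsf18 (-3.61), Txnip (-2.68), Serpinb1a (-2.41), Gadd45a (-2.38), Kctd16 (-1.94), Aldoc (-1.87), Ccn2 (-1.86), Nos2 (-1.83), Car6 (-1.80), Ptx3 (-1.79), Atf3 (-1.79) and Stbd1 (-1.75).

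Of the clock and clock output genes, the differences above 0 were Per3 (0.91), Per2 (0.89), Dbp (0.72), Arntl2 (0.71), Ciart (0.78), Nr1d2 (0.47), Tef (0.77) and Bhlhe40 (0.48). Those below 0 were Arntl (-1.29), Nr1d1 (-0.76), Rora (-0.47), Csnk1e (-0.57), Nfil3 (-0.75) and Usp2 (-0.76). The calls for Nr1d1 and Rora ended without single arrays, as given with their values in the report.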

How the results depend on the processing

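No called difference of a named gene changed its sign under the alternatives run, while differences near 0 that did not pass crossed 0 with single arrays left out in Fbxl21, Col1a2, Vim and Thy1. The median difference over all tested genes, 0.0385, was -0.0061 with array medians set equal, and the share of positive calls went from 50.3% to 42.8% after cyclic loess scaling. List medians near 0 changed sign too, such as that of clock kinases and ligases, from 0.023 to -0.022 with array medians set equal. Over the named genes' differences, 4117 alternative values kept their side of the threshold, 236 lost the call and 11 gained it. This tally leaves out the 2-fold minimum, under which every named difference smaller than 2-fold loses its call. With arrays left out one at a time, called differences ranged from 1895 to 4145, wild-type time calls from 157 to 1032, knockout time calls from 4278 to 5992, lost genes from 46 to 191, gained from 1636 to 3429, reversed from 12 to 154, same direction from 12 to 174 and neither from 94 to 206. Array weights gave 5246 differences, 1641 wild-type calls, 298 lost, 4170 in the class gained, 237 reversed and 322 of the same direction. A 2-fold minimum on each contrast by itself left 243 differences, 6 wild-type calls and 266 knockout calls. With the minimum on the difference alone and the time calls as before, the 243 were 2 lost, 215 gained, 20 reversed, 4 of the same direction and 2 in neither. Reversed genes numbered 42 with array medians set equal and 41 without the intensity trend, and wild-type calls numbered 997 from the 6 wild-type arrays alone. For these the cause was not tested. The replicate block gave 2725 differences, 485 wild-type calls and 5375 knockout calls. Same-numbered arrays deviated with correlations of -0.456 to 0.454, over 0.1 in 4 of 18 pairs, so the numbers were not taken to pair the arrays. Levels near or below intensity 174.8 limit what can be said of dim genes.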
